A study of Homo sapiens with 15 samples.

Results

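The expression of DNA topoisomerases and of the enzymes that free DNA from trapped topoisomerases was examined in LNCaP cells, a human prostate cancer line that responds to androgen. The genes were taken by symbol from the expression table. They were TOP1, TOP1MT, TOP2A, TOP2B, TOP3B, TDP1 and TDP2, and all 7 had a row among the 17272 genes of the table. In 10 libraries the cells had received 1 nM R1881, a synthetic androgen, with the solvent DMSO, and in 5 libraries 1 nM R1881 and 2 µM enzalutamide, an antiandrogen drug. All cells had been starved of androgen for 2 days in charcoal-stripped serum and were collected 22 h after treatment, and no library without R1881 was analysed here.

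Topoisomerases cut DNA, let it turn or pass through the break, and seal it again, which removes the twists and knots that replication and transcription leave. Type I enzymes cut a single strand (TOP1 in the nucleus, TOP1MT in mitochondria, TOP3B on DNA and RNA), and type II enzymes cut both strands (TOP2A mainly in dividing cells, TOP2B also in resting cells). During the cut the enzyme is bound to the DNA end through a tyrosine, and the drugs camptothecin and etoposide act by trapping this state. TDP1 hydrolyses the bond left by a trapped TOP1 at a 3′ end, and TDP2 that left by a trapped TOP2 at a 5′ end. In prostate cells TOP2B is known to act at androgen-induced genes.

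With enzalutamide, TOP2A fell to 0.538 of its level with R1881 alone, TDP1 rose 1.41-fold and TOP1MT rose 1.28-fold. TOP1, TOP2B, TOP3B and TDP2 did not pass the test, and their estimated changes lay between -0.07 and 0.11 on the log2 scale. Thus 1 of the 7 genes was lower and 2 were higher at an adjusted p under 0.05 (limma on log2(CPM + 0.5), Benjamini-Hochberg adjustment over all genes tested). Of the 17046 genes tested, 62.5% were called, 32.7% as lower and 29.8% as higher. None of the 7 genes changed by 2-fold or more, beside 4.19% of all genes that were lower and 3.26% that were higher by that much. On recovered reads edgeR called 63% of all genes, and among the 7 genes it called TOP1 and TDP2 as higher in addition. CPM are the deposited values, reads per gene per 1000000 reads of a library size that the authors had scaled. The counted reads per library ranged from 15830745 to 25416052, and each of the 7 genes held at least 154 reads in every library.

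The treatment and the cells were checked first. The androgen targets KLK3, KLK2, TMPRSS2 and FKBP5 were all lower with enzalutamide, with log2 fold changes from -4.99 (FKBP5) to -3.55 (KLK3). The 10 markers of luminal prostate cells, EPCAM and KRT18 among them, all had values, and their summed CPM was 7992 to 9267 under R1881 and 3770 to 3888 under enzalutamide. Of 18 markers of basal, stromal, endothelial and blood cells, 13 had no row. The summed CPM of the 3 fibroblast markers with a row (COL1A1, COL3A1 and LUM) was 6.36 to 10.5 under R1881 and 21.2 to 26.7 under enzalutamide. The basal marker KRT14 was at most 1.44 CPM and the endothelial marker VWF at most 3.35 CPM in any library, and no leukocyte marker had a row. The part of such genes in the results below was not tested. In the labels, numbers 51 to 55 and 71 to 75 belong to R1881 and numbers 81 to 85 to the combination, and since no series holds both treatments, series and treatment cannot be told apart. Libraries also differed in how far their values followed gene GC content. Across genes, Spearman's rho between this content and a library's deviation from its series mean ranged from -0.64 to 0.80 and was strongest in R1881 + enzalutamide replicate 2 and R1881 replicate 6.

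The promoters of TOP2A, TOP2B and TDP1 are shown because the first fell, the second, its sister enzyme, did not pass the test and the third rose. The sequences are the upstream bases of RefSeq start sites on GRCh38.p14 that lie outside annotated exons, from chr17:40417897-40418146 (minus strand) for TOP2A, chr3:25664940-25665157 (minus strand) for TOP2B and chr14:89955678-89955901 (plus strand) for TDP1. The TDP1 stretch lies upstream of its RefSeq start site but within the annotated gene, which starts at 89954939. Capitals mark CCAAT boxes (CCAAT on either strand) and the cell cycle homology element (TTTGAA on either strand).
TOP2A: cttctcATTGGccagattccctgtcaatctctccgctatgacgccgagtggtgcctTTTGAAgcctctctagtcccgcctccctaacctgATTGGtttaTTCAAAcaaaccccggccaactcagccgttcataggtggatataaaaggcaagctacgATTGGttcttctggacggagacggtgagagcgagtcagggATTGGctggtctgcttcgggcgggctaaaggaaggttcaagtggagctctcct
TOP2B: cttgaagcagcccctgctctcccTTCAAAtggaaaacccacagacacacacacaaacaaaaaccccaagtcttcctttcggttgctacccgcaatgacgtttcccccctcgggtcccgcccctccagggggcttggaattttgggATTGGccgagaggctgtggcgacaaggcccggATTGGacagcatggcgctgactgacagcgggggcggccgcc
TDP1: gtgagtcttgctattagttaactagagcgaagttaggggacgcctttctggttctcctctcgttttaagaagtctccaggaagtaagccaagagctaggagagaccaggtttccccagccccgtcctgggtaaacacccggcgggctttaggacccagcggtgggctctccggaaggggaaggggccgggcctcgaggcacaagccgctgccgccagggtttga

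CCAAT boxes bind NF-Y, and the cell cycle homology element is known from promoters of genes used in G2 and mitosis. The 250 bases upstream of TOP2A held 4 CCAAT boxes and 2 TTTGAA elements. Of 35116 RefSeq windows of this length, 0.874% held at least 4 CCAAT boxes and 1.72% at least 2 TTTGAA elements. For TOP2B the further upstream of its 2 windows held 2 CCAAT boxes and 1 TTTGAA, and the other held neither. The window of TDP1 held no CCAAT box and 1 TTTGAA, which runs past the end of the printed stretch. At least 1 CCAAT box was found in 32% of all windows and at least 1 TTTGAA in 13.3%. The windows of TOP1, TOP3B and TDP2 held neither motif. AGAACA, the half-site of androgen response elements, was in none of the 7 windows, which cover 6 of the 7 genes, and in 12.4% of all windows. TOP1MT had no entry. These matches describe the letters only.

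TOP2A, on the minus strand of chromosome 17 (GRCh38 positions 40388525 to 40417896, with 35 exons in the canonical transcript of GENCODE v44), encodes the type II enzyme that untangles sister chromosomes before they part. With R1881 its lowest library was at 100 CPM, the median at 120 and the highest at 141. With enzalutamide the 5 libraries were at 64.7, 55.1, 67.4, 69.6 and 59.2 CPM. All enzalutamide libraries lay below all R1881 libraries, a separation found in this direction for 20.1% of the genes tested (37.2% in either direction). The mean was 118 ± 14.5 CPM (SD, n = 10) under R1881 and 63.2 ± 5.97 CPM (SD, n = 5) under the combination, and the median decreased by 45.9%. The log2 fold change was -0.89 (95% confidence interval -1.06 to -0.73, standard error 0.077, adjusted p = 2.27e-09 from limma), lower than that of all but 5.0% of the genes tested. RNA of whole cultures cannot tell fewer cells that express TOP2A from less TOP2A RNA per cell.

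**Figure D1:**
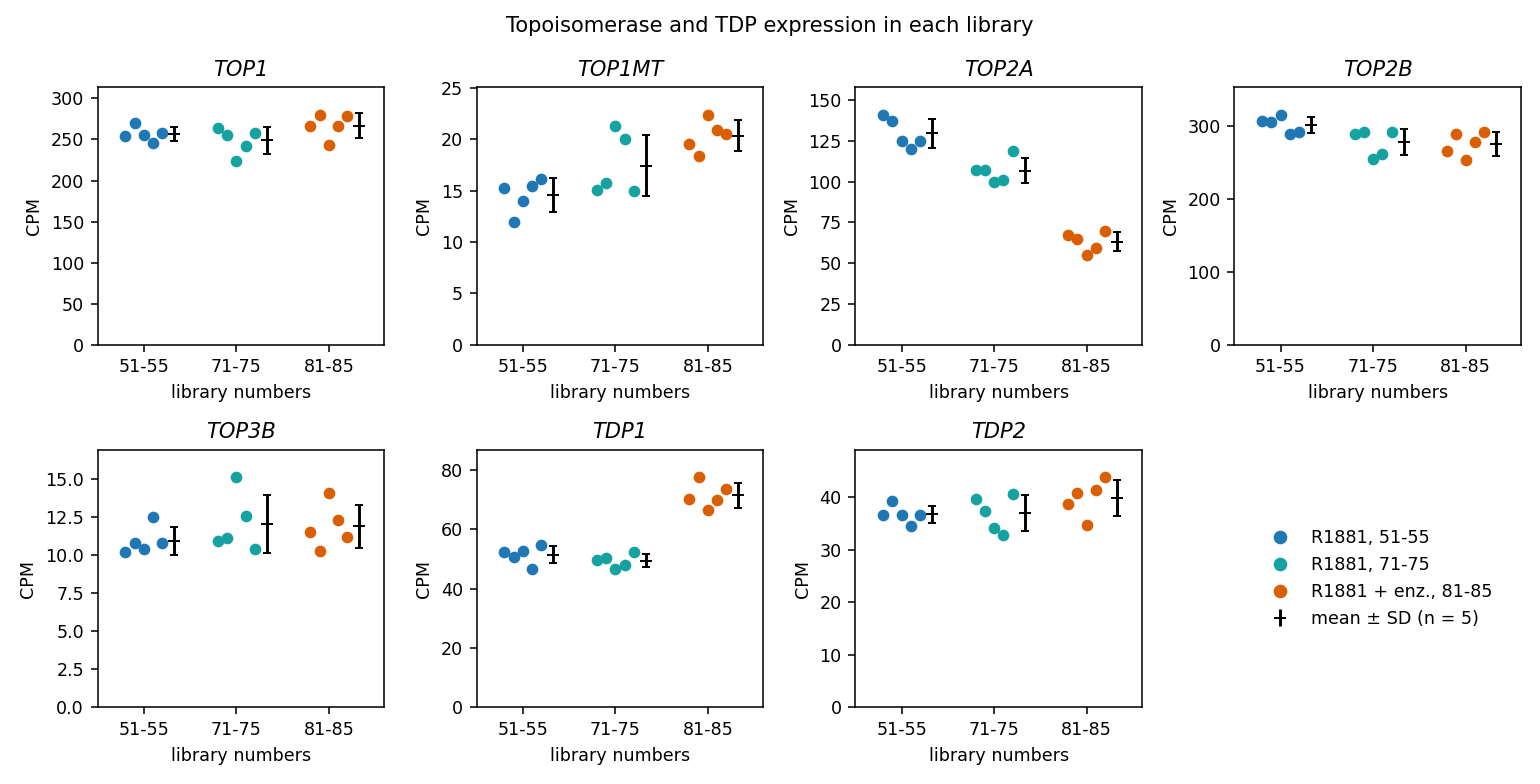
CPM of each of the 7 genes (vertical axes from 0) in the R1881 libraries 51-55 and 71-75 and the R1881 + enzalutamide libraries 81-85, each point a library in order of its number and each bar the mean ± SD of 5 libraries. TOP2A is at 100 CPM or above in every R1881 library and at 69.6 CPM or below in every enzalutamide library, TDP1 is higher in all enzalutamide libraries, and the treatments overlap for the other 5 genes.

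TOP2A also differed between the R1881 series. The libraries 51 to 55 had 130 ± 8.90 CPM (SD, n = 5) and the libraries 71 to 75 had 107 ± 7.68 CPM (SD, n = 5), a log2 difference of -0.28 (adjusted p = 0.0237 from limma with the 3 series as groups). It was the only 1 of the 7 genes called between these series, where 3.71% of all genes were called, 2.76% as lower in the libraries 71 to 75. The call was lost (adjusted p between 0.0553 and 0.0738) when any of R1881 replicates 5, 6, 7, 9 or 10 was left out, with the difference between -0.29 and -0.25. After GC correction the difference was -0.18 (adjusted p = 0.00897 from limma). Against each series alone the log2 fold change of TOP2A with enzalutamide was -1.04 and -0.75, with adjusted p-values of 2.29e-11 and 1.3e-07 from limma.

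TOP2A moved with other genes of cell division. All 24 genes of a list of mitosis genes were lower with enzalutamide, where 32.7% of all genes tested were lower. Their median log2 fold change was -0.90, beside -0.01 over all genes tested. They ranged from NCAPG, a condensin subunit, at -1.26 and the proliferation marker MKI67 at -1.25 to CCNB1 (cyclin B1) at -0.58 and the condensin subunit NCAPD2 at -0.54, and 12 of the 24 had a lower value than TOP2A. All 13 S phase genes were lower as well (median -1.03), from the ribonucleotide reductase subunit RRM2 at -1.69 and the origin licensing factor CDC6 at -1.60 to the helicase subunits MCM3 at -0.75 and MCM6 at -0.59. Of these 13 genes, 8 had a lower log2 fold change than TOP2A. In log2 units TOP2A lay 1.04 to 1.16 above the mean of the mitosis list in the R1881 libraries. In the enzalutamide libraries it lay 0.99 to 1.16 above that mean, so its position relative to the mitosis genes overlapped between treatments. Above the mean of the S phase list TOP2A lay 0.30 to 0.71 with R1881 and 0.55 to 0.79 with enzalutamide. Between the R1881 series 15 of the 24 mitosis genes were lower in the libraries 71 to 75 and none was higher (median log2 difference -0.27). Of the 13 S phase genes 3 were lower. Among all genes tested 2.76% were lower and 0.945% higher in the libraries 71 to 75.

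TOP2B, on the minus strand of chromosome 3 (25597978 to 25664909, 36 exons), encodes the other nuclear type II enzyme. Its R1881 libraries ranged from 255 to 315 CPM with a median of 291, and the enzalutamide libraries were at 289, 253, 265, 292 and 278 CPM. The groups overlapped, and 4 of the 5 enzalutamide libraries lay below the R1881 median. The log2 fold change was -0.07 (95% confidence interval -0.17 to 0.03, adjusted p = 0.20 from limma). It was -0.13 (adjusted p = 0.0118 from limma) when only the series 51 to 55 stood for R1881, and 0.02 when library totals were set to 1000000, so its direction was not fixed.

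The balance of the type II enzymes therefore changed within libraries. The ratio of TOP2A to TOP2B, on CPM + 0.5, ranged from 0.366 to 0.462 with R1881 and was 0.225, 0.219, 0.255, 0.239 and 0.215 with enzalutamide. These ranges did not overlap. The mean log2 ratio decreased from -1.29 ± 0.11 (SD, n = 10) to -2.12 ± 0.10 (SD, n = 5), a difference of -0.82 (two-sided exact permutation test, p = 0.000333, the smallest that this design allows, and 5e-04 after Benjamini-Hochberg adjustment over 3 ratios). A ratio within a library does not depend on the scaling of library sizes apart from the pseudocount. The permutation tests of the ratios take no account of the library series, which cannot be told apart from treatment.

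**Figure D2:**
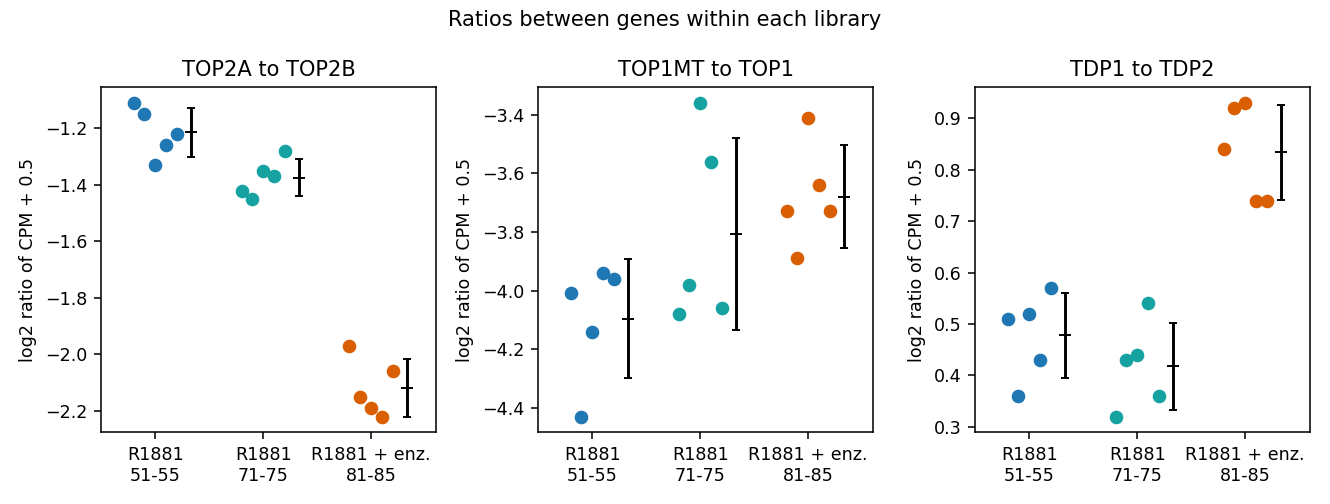
Log2 ratio of CPM + 0.5 between pairs of the 7 genes in each library, by library series, with mean ± SD of 5 libraries. TOP2A to TOP2B is lower and TDP1 to TDP2 higher in all 5 enzalutamide libraries than in all 10 R1881 libraries, while TOP1MT to TOP1 overlaps.

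Of the type I enzymes, TOP1 on the plus strand of chromosome 20 (41028822 to 41124487, 21 exons) is the main nuclear one and relaxes DNA ahead of and behind RNA polymerase. Its R1881 libraries ranged from 224 to 270 CPM with a median of 255, and the enzalutamide libraries were at 280, 243, 266, 279 and 267 CPM. The groups overlapped, with 4 of 5 enzalutamide libraries above the R1881 median. The log2 fold change was 0.08 (95% confidence interval -0.01 to 0.16, adjusted p = 0.097 from limma). This call depended on the processing. TOP1 was called higher without R1881 + enzalutamide replicate 2 (0.11, adjusted p = 0.02 from limma), which followed GC content most, and with library totals set to 1000000 (0.17, adjusted p = 0.000397 from limma).

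TOP1MT, on the minus strand of chromosome 8 (143304384 to 143359979, 14 exons), encodes the type I enzyme that relaxes mitochondrial DNA. With R1881 it ranged from 12 to 21.3 CPM with a median of 15.4, and with enzalutamide it was at 18.4, 22.4, 19.6, 20.5 and 20.9 CPM. All 5 enzalutamide libraries lay above the R1881 median, but R1881 replicates 5 and 6, at 20 and 21.3 CPM, lay within their range. The mean was 16.0 ± 2.73 CPM (SD, n = 10) with R1881 and 20.4 ± 1.49 CPM (SD, n = 5) with enzalutamide, a log2 fold change of 0.35 (95% confidence interval 0.15 to 0.55, standard error 0.096, adjusted p = 0.00337 from limma). Set against only the series 51 to 55 it was 0.47 (adjusted p = 3.54e-05), and against only the series 71 to 75 it was 0.23, which did not pass (adjusted p = 0.0552, both from limma). After GC correction of every library it was 0.39 (adjusted p = 8.63e-06 from limma).

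The ratio of TOP1MT to TOP1 ranged from 0.0462 to 0.0972 with R1881 and was 0.0676, 0.0940, 0.0754, 0.0753 and 0.0801 with enzalutamide, so the treatments overlapped. The mean log2 ratio was higher by 0.27 with enzalutamide (two-sided exact permutation test, p = 0.0839, the same after adjustment over 3 ratios). It passed without R1881 replicate 5 (0.32, exact p = 0.045) or without R1881 replicate 6 (0.34, exact p = 0.0135).

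TOP3B, on the minus strand of chromosome 22 (21957025 to 21982813, 18 exons), encodes a type I enzyme that works with the scaffold protein TDRD3 and also acts on RNA. It was the lowest of the 7 genes, with R1881 libraries between 10.2 and 15.1 CPM (median 10.9) and enzalutamide libraries at 10.3, 14.1, 11.5, 11.2 and 12.3 CPM. The groups overlapped over most of their range. The log2 fold change was 0.05 (95% confidence interval -0.13 to 0.23, adjusted p = 0.648 from limma), and it was -0.01 when only the series 71 to 75 stood for R1881 or when R1881 + enzalutamide replicate 2 was left out. Its pseudogene TOP3BP1 had 1.40 ± 0.518 CPM (SD) in the 10 R1881 libraries and 1.40 ± 0.227 CPM (SD) in the 5 others, and reads shared between these copies would make either value uncertain.

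TDP1, on the plus strand of chromosome 14 (89954939 to 90044764, 17 exons), was the gene that rose most among the 7. Its R1881 libraries ranged from 46.7 to 54.7 CPM with a median of 50.5, and the enzalutamide libraries were at 77.5, 66.4, 70.1, 73.7 and 69.8 CPM. Every enzalutamide library lay above every R1881 library, which held in this direction for 17.1% of the genes tested. The mean was 50.5 ± 2.67 CPM (SD, n = 10) under R1881 and 71.5 ± 4.23 CPM (SD, n = 5) under the combination, a log2 fold change of 0.50 (95% confidence interval 0.41 to 0.59, standard error 0.045, adjusted p = 4.05e-09 from limma). The R1881 series differed by -0.06 for TDP1 (adjusted p = 0.493 from limma), and against each alone the log2 fold change was 0.47 and 0.53.

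TDP2, on the minus strand of chromosome 6 (24649979 to 24666930, 7 exons), had R1881 libraries between 32.8 and 40.7 CPM (median 36.7) and enzalutamide libraries at 40.8, 34.7, 38.8, 43.8 and 41.4 CPM. The groups overlapped, and R1881 + enzalutamide replicate 2 alone lay below the R1881 median. The log2 fold change was 0.11 (95% confidence interval -0.01 to 0.23, adjusted p = 0.0923 from limma), and without that library it was 0.16 (adjusted p = 0.0154 from limma). With library totals set to 1000000 it was 0.20 (adjusted p = 0.00227 from limma).

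The ratio of TDP1 to TDP2 ranged from 1.25 to 1.48 with R1881 and was 1.89, 1.90, 1.80, 1.67 and 1.68 with enzalutamide. The treatments did not overlap. The mean log2 ratio increased from 0.45 ± 0.084 (SD, n = 10) to 0.84 ± 0.089 (SD, n = 5), a difference of 0.39 (two-sided exact permutation test, p = 0.000333, and 5e-04 after adjustment over 3 ratios).

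**Figure D3:**
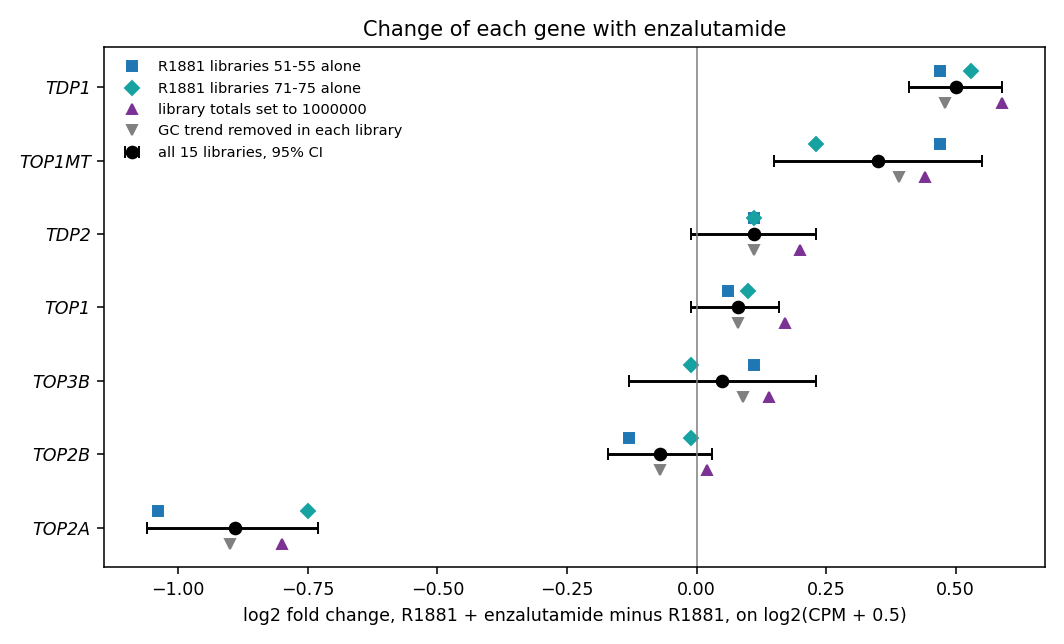
Log2 fold change of each gene on the log2(CPM + 0.5) scale, R1881 + enzalutamide minus R1881. Black points and bars are the estimate and 95% confidence interval over all 15 libraries, and coloured symbols the estimate under 4 alternatives. TOP2A stays between -1.04 and -0.75 and TDP1 between 0.47 and 0.59, while TOP2B and TOP3B have symbols on both sides of 0.

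Per kilobase of the canonical transcript the order of the levels changed. With R1881 it was TOP1 at 67.7 ± 3.42 CPM per kb (SD, n = 10), TOP2B at 49.8 ± 3.20, TOP2A at 20.8 ± 2.54, TDP2 at 19.1 ± 1.31, TDP1 at 13.6 ± 0.719, TOP1MT at 8.25 ± 1.40 and TOP3B at 4.05 ± 0.533. TOP2A and TDP2 overlapped, and no other neighbours in this order did. With enzalutamide TOP2A, at 11.1 ± 1.05 CPM per kb (SD, n = 5), stood below TDP2 at 20.6 ± 1.77 and TDP1 at 19.2 ± 1.14, which overlapped each other, and beside TOP1MT at 10.5 ± 0.768, with which it overlapped. Other transcripts of these genes, or reads that fit several genes, would move these levels. Without the strand setting, reads of TOP1 and TOP3B cannot be told apart from those of PLCG1-AS1 and PPM1F-AS1, which overlap them on the opposite strand.

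Genes that work with the topoisomerases were described from a list of 10, of which 9 had a row. With enzalutamide 4 were lower and 1 was higher, with a median log2 fold change of -0.07, where 32.7% of all genes tested were lower and 29.8% higher (median -0.01). Those lower were BLM at -1.07 and TOP3A at -0.73, which dissolve crossed DNA strands together, their partner RMI2 at -0.58, and the replication checkpoint factor TOPBP1 at -0.47. RMI1, a further partner of BLM and TOP3A, was at -0.07 and was not called (adjusted p = 0.321 from limma). TDRD3, the partner of TOP3B, was higher at 0.23 (adjusted p = 0.00117 from limma). TOP3A had 45.9 ± 3.23 CPM (SD) in the 10 R1881 libraries and 27.4 ± 0.979 CPM (SD) in the 5 others, whereas TOP3B, of the same enzyme type, was not called.

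Of 17 other genes with a part in removing trapped topoisomerases, 6 were lower and 3 were higher, with a median log2 fold change of -0.08. Over all genes tested 32.7% were lower and 29.8% higher. The share of lower genes was thus near that of all genes. The lowest were EME1, a subunit of the MUS81 nuclease, at -0.91 and the SUMO ligase PIAS1 at -0.89. UCHL3, a deubiquitinase known to act on TDP1, was at -0.67 (adjusted p = 1.58e-08 from limma), opposite in direction to TDP1 itself. The highest were ACRC, the older symbol of the protease GCNA, at 0.41 with 1.71 ± 0.249 CPM (SD, n = 5) under enzalutamide, and the nuclease subunit ERCC1 at 0.25. The protease SPRTN was lower, at -0.22 (adjusted p = 0.0048 from limma). The SUMO ligase ZNF451, a partner of TDP2, was at -0.02 (adjusted p = 0.804 from limma), and RAD50, NBN and MRE11A, which form a nuclease complex, were not called. UCHL3, SPRTN, ZNF451, RMI1, RMI2 and this complex are named in addition to the fixed rule and were chosen after their values were seen.

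In the steps that follow TDP1 and TDP2, where the freed end is trimmed and joined, 7 of 11 tested genes were lower and none was higher (12 genes listed, median log2 fold change -0.23), against 32.7% lower and 29.8% higher among all genes tested. The lowest were XRCC5 at -0.57, which encodes the Ku80 end-binding protein, and the repair polymerase POLB at -0.44. LIG3, the ligase that acts with XRCC1, was at -0.23 and the kinase PRKDC at -0.18.

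**Figure D4:**
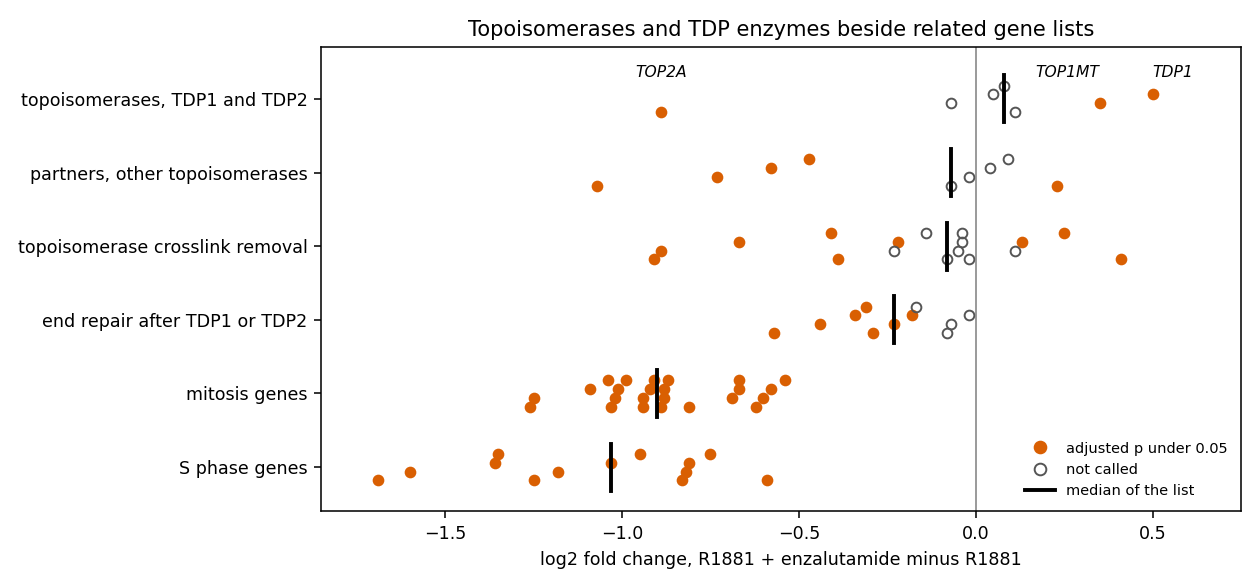
Log2 fold change with enzalutamide (horizontal axis) of the 7 genes and of 5 gene lists, filled where the adjusted p from limma was under 0.05 and open where it was not, with black bars at the median of each list. TOP2A lies within the range of the mitosis genes, and TDP1, at 0.50, lies to the right of every gene of the lists shown.

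Within a library series the 7 genes varied together in 2 blocks that matched their GC content. The canonical transcripts of TOP1MT and TOP3B had 57.4% and 58.8% GC and those of the other 5 genes between 38.9% and 45.4%. Over the 15 libraries, as deviations of log2(CPM + 0.5) from the mean of their series, Pearson's r was between 0.62 and 0.86 for the 10 pairs among the 5 genes of lower GC content, 0.75 for TOP1MT with TOP3B, and between -0.89 and -0.48 for the 10 pairs across. After GC correction these ranges were -0.10 to 0.52, 0.26, and -0.64 to 0.26. The points of such a correlation share their libraries, depth and base composition. The genes most like TOP2A in these deviations were CDK1 (r = 0.95), RRM2 (r = 0.94) and SHCBP1 (r = 0.92), and with the trend removed their values were 0.84, 0.85 and 0.82. The genes most like TOP2A after that removal were others, VDAC1P2 (r = 0.87), ZNF702P (r = 0.86) and TMOD1 (r = 0.85).

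**Figure D5:**
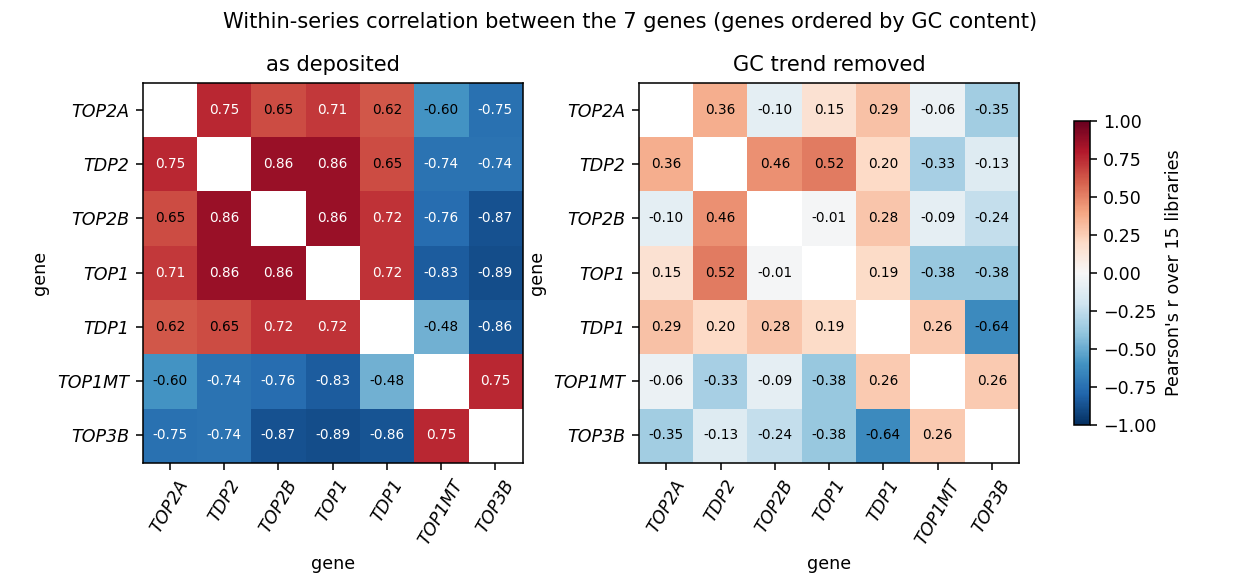
Pearson's r between the 7 genes over 15 libraries, as deviations from the mean of each library series, with genes in order of GC content from TOP2A (38.9%) to TOP3B (58.8%). As deposited (left) the 5 genes of lower GC content correlate with each other and inversely with TOP1MT and TOP3B, and with the GC trend removed (right) most values are nearer to 0.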

How the data were processed

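Polyadenylated RNA (TruSeq Stranded mRNA, single-end reads of 50 bases) was measured in 10 libraries of LNCaP cells with R1881 and 5 with R1881 and enzalutamide, grouped by sample title. The study calls them biological replicates, with the numbers of the treatments the other way round. Reads were mapped by the authors to GRCh38 (STAR) and counted per gene (featureCounts), and the deposited values are a normalized signal, which the methods call CPM. For mapping and counting, tool versions (other than bcl2fastq 2.17 for making the read files), the annotation, the strand setting, the gene filter and the scaling were not given in the sources used here. Library sums of this signal lay between 1053406 and 1078567 for R1881 and between 985580 and 1008992 for R1881 + enzalutamide. They did not overlap between treatments. Divided by what 1 read was worth in its library, every value (100.0%) came out whole within 0.01 reads, which gave back the read counts.

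The values were tested with limma 3.58.1 in R 4.3.3 on log2(CPM + 0.5), with a mean-variance trend and treatment alone in the model, for genes whose CPM averaged 0.5 or more (Benjamini-Hochberg adjustment, threshold 0.05), so fold changes of low genes are understated. The test had been fixed for CPM and was kept for this signal. Ratios were compared with two-sided exact permutation tests. Alternatives were edgeR 4.0.16 and DESeq2 1.42.0 on recovered reads, other pseudocounts (0.1 and 1), filters, scalings and reference libraries, GC content correction (a spline with 5 degrees of freedom, for the genes with a matched symbol, 80.8% of all), a replicate block and each library left out. Added after the data were seen were the fit of R1881 replicates 1 to 5 without the block, the fit without the 2 libraries that followed GC content most, and the GC correction of correlations.

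The genes, lists and tests were chosen with earlier results of these data known. By rule the text names the 7 genes, androgen targets, the 2 lowest and 2 highest called genes of each list, and the 3 genes most like each of the 7 (mean CPM of at least 5). Counts of the luminal and other cell type markers are given as lists. Genes without a row under a current or older symbol, TOP1P1 and TOP1P2 among them, were not analysed here. Results for some listed genes are not reported here. Positions are from GENCODE v44. All 55 pairs of libraries within a treatment were further apart than sampling noise (lowest ratio of chi-square to degrees of freedom 1.63). The number of libraries limits precision, as does counting error for TOP3B and TOP1MT.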

Additional observations from a re-analysis of the deposited data

Results flagged for a closer look

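Of 20 sets of 5 or 10 libraries examined (the 7 genes and 3 ratios in each treatment), 1 held a library far from the others, where chance flags about 1 in 20 at the 95% critical values used, and the ratios reuse the values of the genes. TOP3B was at 15.1 CPM in R1881 replicate 6, and the other R1881 libraries lay between 10.2 and 12.6 CPM, a gap of 0.511 of the whole range. This library followed GC content more than any other R1881 library (Spearman's rho 0.75 across genes), and its part in the value was not tested. Without it the log2 fold change of TOP3B was 0.09 (adjusted p = 0.283 from limma).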

How the results depend on the processing

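TOP2A was lower and TDP1 higher at an adjusted p under 0.05 in each of 15 alternatives for the whole fit and with each library left out, from -1.04 to -0.75 and from 0.47 to 0.59. The genes with small changes depended on the scaling and the test. TOP1 was called higher with library totals set to 1000000 (0.17), TMM factors (0.12), edgeR (0.12), DESeq2 (0.09), GC correction (0.08) and without the 2 libraries that followed GC content most (0.09). TDP2 was called higher under the same alternatives, at 0.20, 0.15, 0.16, 0.13, 0.11 and 0.15, so that 4 of the 7 genes were higher in each of them and not 2. TOP2B turned to 0.02 with library totals set to 1000000, and was called lower with GC correction (-0.07) and against the R1881 libraries 51 to 55 (-0.13), which gave 2 lower genes in each. Against the libraries 71 to 75 TOP1MT was not called (0.23), leaving 1 higher gene, and TOP3B turned to -0.01. The cause was not tested. With library totals set to 1000000, 4288 genes were lower and 6641 higher, beside 5577 and 5083 as deposited. Requiring at least 2-fold over all 15 libraries left 1270 genes and 0 of the 7 in either direction by limma. This held at an unadjusted p under 0.05 too, since the largest change was -0.89 (-0.86 by edgeR). Against only the R1881 libraries 51 to 55, TOP2A was past 2-fold, at -1.04.

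With each library left out the log2 fold change was 0.06 to 0.11 for TOP1, 0.31 to 0.40 for TOP1MT, -0.93 to -0.85 for TOP2A, -0.09 to -0.04 for TOP2B, -0.01 to 0.10 for TOP3B, 0.47 to 0.53 for TDP1 and 0.08 to 0.16 for TDP2. The number of higher genes was 2 to 4 (4 without R1881 + enzalutamide replicate 2), that of lower genes 1, and 10093 to 10864 genes were called in all. Between the R1881 series 0 to 1 of the 7 genes was called. The series difference of TOP2A was -0.32 to -0.25 and that of TDP2 -0.03 to 0.04, and with GC correction that of TOP2A was -0.18 and that of TOP1 0.04. For the ratios, with 1 library left out at a time, the difference in mean log2 ratio between treatments was -0.86 to -0.80 for TOP2A to TOP2B. It was 0.21 to 0.34 for TOP1MT to TOP1 and 0.36 to 0.41 for TDP1 to TDP2. Against only the R1881 libraries 51 to 55 or 71 to 75, that of TOP2A to TOP2B was -0.91 or -0.74. TOP1MT to TOP1 also passed against the R1881 libraries 51 to 55 (0.42, exact p = 0.00794), with GC correction (0.31) and without the 2 libraries that followed GC content most (0.27, exact p = 0.049).

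The replicate numbers of the titles do not pair the libraries (correlations of same-numbered deviations between -0.07 and 0.07). A pairing by the last digit of the library numbers was not tested. With the block on the replicate numbers of the titles 10048 genes were called, against 10259 for the same libraries without it, and no call on the 7 genes changed. For the ratios the paired test cannot go below an exact p of 0.0625, which TOP2A to TOP2B (-0.81) and TDP1 to TDP2 (0.39) reached.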

Other observations

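Within library series TDP2 was most like MKI67 (Pearson's r = 0.97 over 15 libraries, as deviations from the series means, and 0.92 with the trend on GC content removed), although MKI67 had a log2 fold change of -1.25 with enzalutamide and TDP2 one of 0.11. TDP2 was followed by HP1BP3 (0.96) and PTBP3 (0.95). TDP1 was most like MARK1 (0.92), TMED8 (0.89) and HNRNPA1P10 (0.88), and TOP2B most like EIF2AK4 (0.99), SYT4 (0.98) and KIF5B (0.98). TOP1 was most like PERP (0.96), UGT2B15 (0.96) and RBBP4 (0.95), and these fell to between 0.35 and 0.46 with the trend removed. TOP1MT was most like CEP131 (0.96), ISG15 (0.96) and MLLT1 (0.94), and TOP3B most like PPIL2 (0.98), WDR6 (0.96) and NOC2L (0.96). These values are the highest among all genes that averaged 5 CPM or more, so high values arise by selection, and the points share their libraries, depth and base composition.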
